A study of Mus musculus with 12 samples.

Results

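The merged list of ATAC-seq regions held 623 of its 170548 rows between 145 Mb and 148 Mb of mouse chromosome 4 (mm10, GRCm38), a span that carries a cluster of C2H2 zinc finger genes. The span was chosen by its density, because no other 100 kb windows of the list hold as many regions as its best 2, and a row was a member when it overlapped the span. All density values along the span are therefore given as a description of what selected it, without a test. ATAC-seq marks DNA that the Tn5 transposase can reach, and a region is a stretch where the authors called such accessible DNA as a peak and merged it over experiments.

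The cells were mouse embryonic stem (ES) cells in which doxycycline (dox) switches off a pluripotency factor. In ZHBTc4 cells a Tet-Off promoter drives Pou5f1, which encodes OCT4, and in 2TS22C cells it drives Sox2. The study prepared 12 libraries in 6 groups of 2 replicates: ZHBTc4 cells without dox (OCT4 ON) or with 1 µg/ml dox for 24 hr (OCT4 OFF), and 2TS22C cells without dox (SOX2 ON) or with 1 µg/ml dox (SOX2 OFF), each after 26 hr and after 40 hr. All cells grew in serum with LIF and the inhibitors CHIR99021 and PD184352, and the factor was expressed from the Tet-Off promoter in the untreated cells too. The list pools both lines and all treatments and carries positions without a height, so it does not tell in which cells a region was open, no difference between dox-treated and untreated cells can be read from it, and the depth of each library is unknown.

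C2H2 zinc finger proteins bind DNA through tandem fingers, each held together by a zinc ion between a pair of cysteines and a pair of histidines. Many of the mouse genes also encode a KRAB domain, which recruits TRIM28 (KAP1) and the H3K9 methyltransferase SETDB1 and is best known for silencing endogenous retroviruses in ES cells. Such genes sit in clusters that grew by tandem duplication, so that neighbouring genes share promoters, introns and finger exons of nearly equal sequence, and short sequencing reads from them can match more than 1 place.

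The sequences on which the description turns were of 3 kinds: promoters that the genes share, an intron element copied in many of the genes, and the finger exons. Of the 19 protein-coding genes of the span with at least 3 C2H2 fingers, 13 had an entry in the RefSeq promoter table (GRCm38.p6). The 250 bases upstream of the RefSeq start were alike in 12 of these 13 genes, with 79.3% to 98.8% identity between pairs (median 87.6%, 66 pairs), and 108 alignment columns held the same base in all 12. The upstream sequence of Zfp933, the last zinc finger gene of the span, matched those 12 at only 38.6% to 48.0% of aligned bases. The sequences of 5 genes are printed because they show the shared core and the gene that lacks it. The identities between pairs came from an alignment of all 13 sequences. Capitals mark the bases that are identical in all 12 related genes, in a second alignment of those 12 that left out Zfp933.
Zfp980 (chr4:145670447-145670696, plus strand): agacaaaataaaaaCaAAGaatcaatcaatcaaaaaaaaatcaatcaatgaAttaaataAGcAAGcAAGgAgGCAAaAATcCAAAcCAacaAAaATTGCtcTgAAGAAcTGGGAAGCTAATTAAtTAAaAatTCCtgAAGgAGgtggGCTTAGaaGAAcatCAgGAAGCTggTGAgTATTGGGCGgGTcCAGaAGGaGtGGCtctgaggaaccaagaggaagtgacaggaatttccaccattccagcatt
Zfp985 (chr4:147553027-147553276, plus strand): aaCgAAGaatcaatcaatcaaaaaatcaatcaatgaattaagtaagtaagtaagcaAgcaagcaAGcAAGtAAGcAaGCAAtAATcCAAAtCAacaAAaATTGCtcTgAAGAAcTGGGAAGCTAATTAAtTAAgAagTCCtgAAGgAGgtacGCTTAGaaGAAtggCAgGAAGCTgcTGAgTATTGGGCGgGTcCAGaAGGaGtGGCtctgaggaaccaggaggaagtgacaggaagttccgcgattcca
Zfp988 (chr4:147305354-147305603, plus strand): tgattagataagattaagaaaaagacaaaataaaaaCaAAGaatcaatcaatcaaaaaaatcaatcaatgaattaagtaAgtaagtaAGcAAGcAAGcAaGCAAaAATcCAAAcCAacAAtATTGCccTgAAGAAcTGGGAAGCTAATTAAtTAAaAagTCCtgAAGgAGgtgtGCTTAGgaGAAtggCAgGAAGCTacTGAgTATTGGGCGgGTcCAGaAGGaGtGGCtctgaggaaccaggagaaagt
Zfp984 (chr4:147809789-147810038, minus strand): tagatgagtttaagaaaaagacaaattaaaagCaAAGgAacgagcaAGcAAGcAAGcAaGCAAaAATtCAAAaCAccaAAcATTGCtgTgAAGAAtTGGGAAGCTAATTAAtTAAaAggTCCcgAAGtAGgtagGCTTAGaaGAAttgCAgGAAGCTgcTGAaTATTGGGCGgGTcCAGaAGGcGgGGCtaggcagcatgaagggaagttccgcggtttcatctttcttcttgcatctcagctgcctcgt
Zfp933 (chr4:147848419-147848668, minus strand, no capitals because it was not part of the alignment): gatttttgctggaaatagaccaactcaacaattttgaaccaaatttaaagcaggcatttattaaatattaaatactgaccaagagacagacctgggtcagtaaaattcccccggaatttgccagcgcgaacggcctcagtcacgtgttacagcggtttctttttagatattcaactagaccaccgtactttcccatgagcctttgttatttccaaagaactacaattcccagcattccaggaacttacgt

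A merged region covered at least 1 base of the upstream sequence in 9 of the 12 related genes and all 250 bases in 6 of them (Gm13212, Zfp534, Zfp982, Zfp984, Zfp985 and Zfp988). It covered none in Zfp600, Zfp979 and Zfp987. The upstream 250 bases of Zfp933 lay wholly inside a region as well, so a region was present at a promoter with the shared core and at the one without it. The CAAT box CCAAT (on either strand, here as ATTGG in the shared core) occurred in all 12 related sequences and in 33.8% of the 32851 promoters of the table, and the GC box GGGCGG, which overlaps it in the printed sequences, in 10 of 12 against 32.7%. The TATA box TATAAA, the octamer ATGCAAAT bound by OCT4 and the AP-2 palindrome GCCNNNGGC were found in none of the 12 windows, and the SOX element ACAAAG in 6 of 12 against 16.5% of all promoters. A match of letters is a description of the sequence and not of binding.

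The intron element was found 13 times in the span, with at least 90% identity over at least 80% of the copy at Zfp985. It carried a region at 9 copies, among them the searched copy at Zfp985, which is a region by choice, and none at 4. A stretch of it is printed from 3 genes to show how alike the copies are whether or not a region was called there. Capitals mark bases that differ from the Zfp985 copy or are inserted relative to it.
Zfp985 (chr4:147558260-147558439, plus strand, inside a region): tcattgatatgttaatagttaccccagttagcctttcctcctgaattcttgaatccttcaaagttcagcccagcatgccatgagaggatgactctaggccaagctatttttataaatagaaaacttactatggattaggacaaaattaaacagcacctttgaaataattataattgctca
Zfp988 (chr4:147311719-147311900, plus strand, inside a region): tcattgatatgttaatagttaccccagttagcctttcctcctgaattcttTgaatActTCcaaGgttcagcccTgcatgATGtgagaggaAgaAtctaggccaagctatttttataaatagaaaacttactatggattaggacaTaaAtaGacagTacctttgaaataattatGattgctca
Zfp600 (chr4:146161302-146161482, plus strand, no region): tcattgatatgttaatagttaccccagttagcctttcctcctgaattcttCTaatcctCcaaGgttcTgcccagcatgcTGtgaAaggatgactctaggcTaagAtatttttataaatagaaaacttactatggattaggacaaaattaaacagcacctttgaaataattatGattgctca

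The copy in Zfp978 (chr4:147365750-147365930), also without a region, was identical to the Zfp600 copy over this stretch. The Zfp600 stretch differed from that of Zfp985 at 11 bases and the Zfp988 stretch at 16. The finger exons are shown by a stretch of 3 fingers of Zfp990, which lies inside a region of 1637 bp. Capitals mark the codons of the zinc-binding cysteines and histidines, and 1 finger repeats every 84 bases.
Zfp990 (chr4:145537157-145537408, plus strand): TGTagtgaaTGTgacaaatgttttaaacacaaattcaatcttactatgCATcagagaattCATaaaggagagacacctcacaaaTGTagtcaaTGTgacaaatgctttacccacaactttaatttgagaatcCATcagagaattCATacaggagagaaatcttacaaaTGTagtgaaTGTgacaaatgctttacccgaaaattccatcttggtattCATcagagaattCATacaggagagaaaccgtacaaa

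The span held 243 regions per Mb of assembled sequence (Poisson 95% interval 224 to 262, counting error only), against 70.6 on the rest of chromosome 4 and 69.5 on all autosomes. Regions covered 12.1% of its assembled bases, against 3.43% of the autosomes. The density was uneven along the span. Of the 30 windows of 100 kb, 21 contained no unassembled base and held 22 regions in the median, 9 contained a gap in the assembly, and the 6 gaps added up to 431871 bp. The densest window, chr4:147200001-147300000, held 55 regions over 44.1% of its bases and overlapped no protein-coding gene. It holds the zinc finger pseudogene Gm13147 and pseudogenes related to Cdv3, Smarca5 and Rplp1. The next window held 49 regions (29.9% of bases) with Zfp988 and Zfp978, and the one after it 42 with Zfp982. Nearer the start of the span 41 regions lay in chr4:145400001-145500000, where the noncoding gene Platr16 and the zinc finger pseudogene Gm13230 lie, and 42 in the next window with Zfp990 and Gm13212. The gaps lie between these stretches, and density there varied from window to window. The window chr4:146400001-146500000 with Zfp992 held 34 regions in 74654 assembled bases, or 455 per assembled Mb and 24.1% of those bases, and the next, with Zfp981, held 25, whereas the one after it, with Zfp993, held 1 region in 58412 assembled bases.

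**Figure D1:**
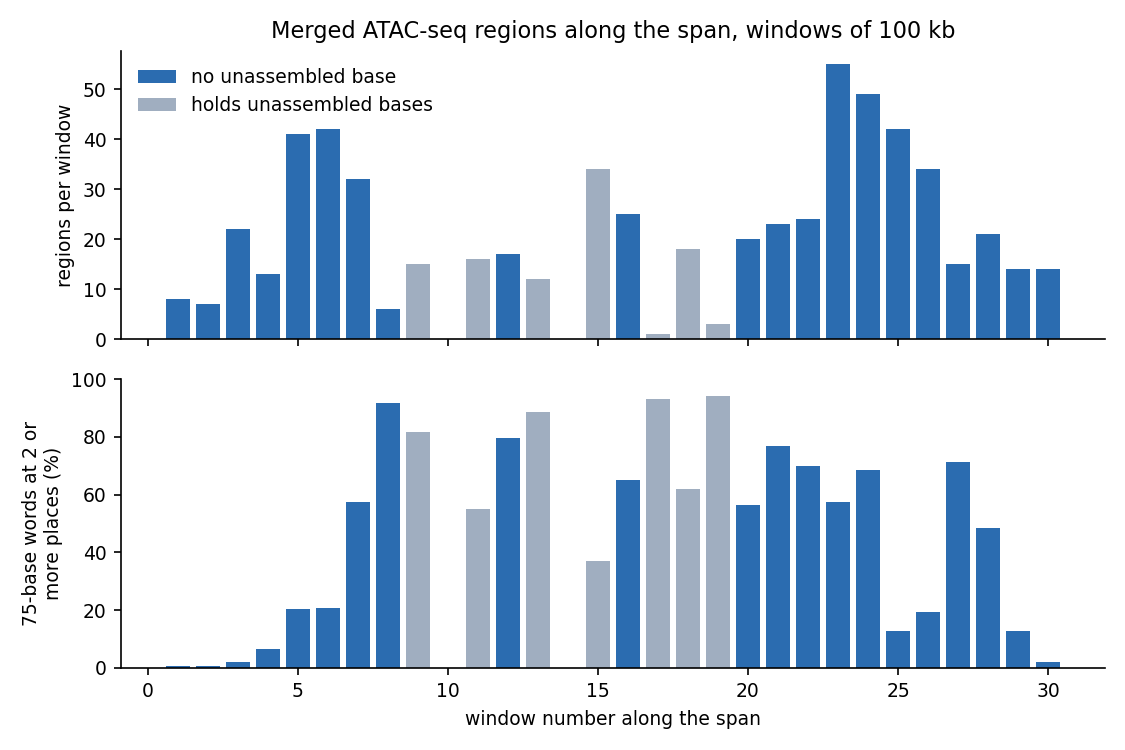
Number of merged regions (upper panel) and percentage of 75-base words found at 2 or more places of the genome (lower panel) in each of the 30 windows of 100 kb, numbered along the span from its start. Windows in grey hold unassembled bases, 2 of them no sequence at all. Window 23 held 55 regions and window 24 held 49, while window 8 held 6 regions with 91.6% repeated words.

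Density fell at both ends, where most genes are not zinc finger genes. The first 4 windows held 8, 7, 22 and 13 regions around Vps13d, a lipid transfer protein gene, and the TNF receptor genes Tnfrsf1b and Tnfrsf8, and the last 2 windows held 14 each around Zfp933, Miip, Fv1, a gene that restricts murine leukemia virus, Mfn2, Plod1 and Nppb. Just outside the span the adjoining windows held 12 and 23 regions. The cluster between the start of Zfp990 and the end of the Zfp933 locus (chr4:145510759-147848366) held 510 regions, or 268 per assembled Mb. Of the 37 windows in the whole list with 30 or more regions, 8 lay in the span, and they were also 8 of the 20 densest.

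The members were narrower than the rest of the list in the median and had more very wide and very narrow regions. Their median width was 346 bp (quartiles 197 and 655.5 bp, range 127 to 3738 bp, 95% interval of the median 318 to 381 bp), against 379 bp in the rest of the list and 473 bp in the other zinc finger gene clusters described below. Regions over 1500 bp made up 3.37% of members and 2.11% of the rest, and regions under 200 bp 26.3% and 19.4%. The 3 widest members all lay in the densest window. A region of 3738 bp (chr4:147257075-147260812) spanned the finger array and the end of Gm13147, 1 of 3239 bp (chr4:147231224-147234462) lay near the start of the same pseudogene, and 1 of 2572 bp (chr4:147296534-147299105) lay 7855 bp upstream of Zfp988. Members contained 44.4% G and C bases, against 51.5% in the rest of the list.

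Repeated sequence was frequent in the members, both as soft-masked repeats and as words present at several places of the genome. Soft-masked bases, which the genome file marks as interspersed or simple repeats, made up 33.6% of the members' bases, against 21.4% in the rest of the list, 20.7% on the rest of chromosome 4 and 37.8% in the span between regions. The second measure used words of 75 bases, the read length of the study, counted over the assembled chromosomes on both strands. It does not tell whether the other places lie in the span or elsewhere. Among the words of the members 28.5% occurred at 2 or more places, against 3.53% in the rest of the list, and almost all of these (27.6% of words) occurred at 2 to 10 places. Every word was unique in 181 of the 623 members (29.1%), against 87.4% of the rest, and every word was repeated in 18 (2.89%) against 0.230%.

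Within the span, regions were more frequent in sequence that is unique in the genome. Words at a single place made up 53.8% of the words of the span, and 16.01% of them lay in a region by their middle base. For words at 2 places the share was 12.6%, at 3 to 5 places 6.13%, at 6 to 10 places 7.28% and at more than 10 places 2.90%. The windows showed a similar order. The 5 gap-free windows with over 70% repeated words held 6 to 24 regions (median 17), and the 10 gap-free windows with at most 70% that were neither among the first 4 nor the last 2 held 20 to 55 (median 37.5). Over those 15 windows the Spearman correlation of region number with repeated words was -0.59 and the Pearson correlation -0.58. With the window of Zfp933, Miip and Fv1 near the end added (14 regions) they were -0.35 and -0.40, and over all 21 gap-free windows, which include the unique and sparse ends, they were 0.21 and 0.091. The windows share libraries and neighbouring sequence, so these are descriptions. A read that matches several places cannot be placed by its own sequence alone. The reads were paired, so a mate in unique sequence can place it, which the count of single words leaves out. How the authors' alignment treated reads that match several places is not given in the sources used here. The part of this treatment in where regions were called was therefore not tested.

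**Figure D2:**
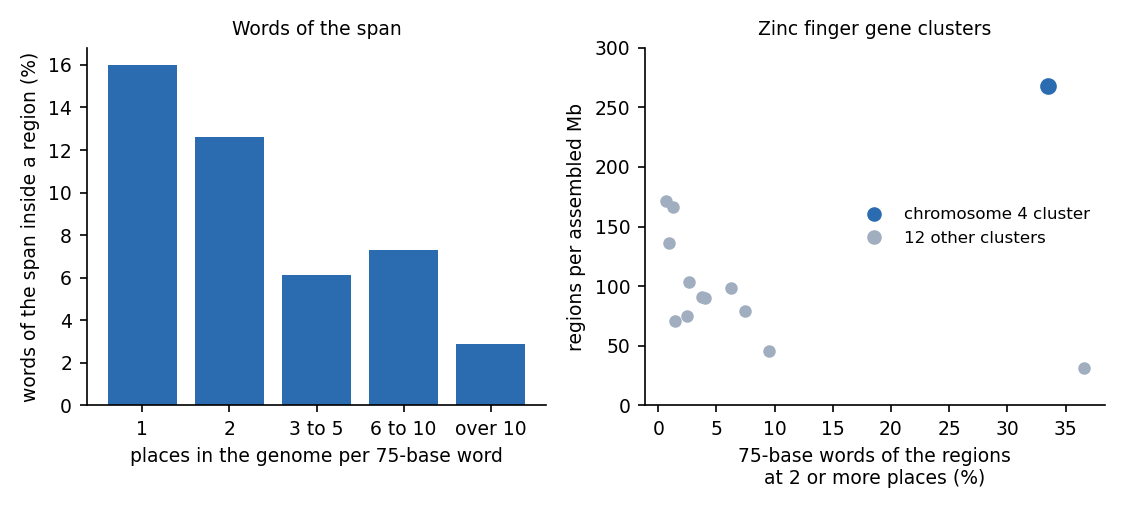
Left, percentage of the 75-base words of the span that lay in a merged region by their middle base, for words found at 1, 2, 3 to 5, 6 to 10 or over 10 places of the genome; it falls from 16.01% to 2.90%. Right, regions per assembled Mb against the percentage of repeated 75-base words in the regions of 13 zinc finger gene clusters, where the chromosome 4 cluster (268 per Mb, 33.5%) and a chromosome 2 cluster (31.7 per Mb, 36.6%) have similar repeat content.

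Nearly all zinc finger genes of the cluster had a region near an annotated transcript start. A region was centered within 1 kb of a transcription start site (TSS) of any annotated transcript in 17 of the 19 protein-coding zinc finger genes (89.5%, Wilson 95% interval 68.6 to 97.1), the exceptions being Zfp986 and Zfp978. The share was 84.2% (176 of 209, 78.7 to 88.5) in the other zinc finger clusters, 94.4% (385 of 408) in zinc finger genes outside clusters and 73.6% in all other protein-coding genes, and the interval of the span contains all of these. The genes share promoter sequence, so they are not independent observations. In Zfp600 the region lay at an internal transcript start, centered 5250 bp downstream of the annotated gene start. The density of the span bears on its share too, since 35.98% of its positions lay within 1 kb of a region center. For autosomal positions the value was 12.7%. The base of the annotated gene start itself lay inside a region in 11 genes, and these regions ranged from 457 bp to 1823 bp with a median of 888 bp. The widest was that of Zfp988 (1823 bp, chr4:147305241-147307063), followed by Zfp981 (1323 bp), Zfp984 (911 bp), Zfp933 (892 bp), Zfp989 (890 bp), Zfp985 (888 bp), Zfp990 (798 bp), Zfp534 (747 bp), Gm13212 (740 bp), Zfp980 (610 bp) and Zfp982 (457 bp). The other genes had at most a region to the side of the start. In the 2 kb around the start, repeated words made up 21.7% in the median (0 to 70.8%) of the 11 genes with a covered start and 73.2% (36.03% to 93.6%) of the 8 genes without.

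Across all members, 104 of 623 (16.7%, 13.97 to 19.8) lay within 1 kb of a TSS of any annotated transcript, against 17.3% in the rest of the list. Zinc finger genes and pseudogenes with at least 3 fingers made up 25.7% of the assembled span and contained 209 members (33.5%, 30.0 to 37.3). Regions covered 15.4% of the bases of these genes and 10.97% of the span outside them. By position, 18 members overlapped a finger array, 102 more lay within 1 kb of a TSS, 174 elsewhere inside a zinc finger gene, 19 between 1 kb and 5 kb upstream of one, 38 in another protein-coding gene and 1 in another pseudogene. Of the rest, 166 lay only inside the long noncoding genes that cross the cluster, such as C230088H06Rik and Gm26573, and 105 in no annotated gene.

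The number of regions per gene varied widely. Counted over the gene body and 5 kb upstream, the protein-coding zinc finger genes held 1 to 23 regions, with a median of 9. Zfp981 and Zfp988 held 23 each, Zfp980 20, Zfp992 17, Zfp984 16, Zfp990 14, Gm13212 13, Zfp985 12, Zfp982 11, and Zfp600 and Zfp991 9 each. The pseudogene Gm13147 held 26, more than any coding gene. At the other end, Zfp933 held 1 region, at its start, Zfp978 held 3, Zfp979 4, and Zfp986, Zfp987 and Zfp989 5 each. Zfp993, which encodes 2 recognizable fingers in its annotated exons and was not counted among the 19, held none, nor did the pseudogene Znf41-ps. The words around the starts of these 2 were repeated to 92.8% and 96.3%. Zfp933 had no repeated words in the 2 kb around its start or in its fingers, so low numbers occurred at both ends of the repeat scale. In the sequence itself, an array of 5 fingers ran past the annotated end of Zfp993 (chr4:146657944-146658342). It ended shortly before an assembly gap at chr4:146658413, and Zfp986 ended directly at another gap. The counts of both genes therefore cover assembled sequence only.

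**Figure D3:**
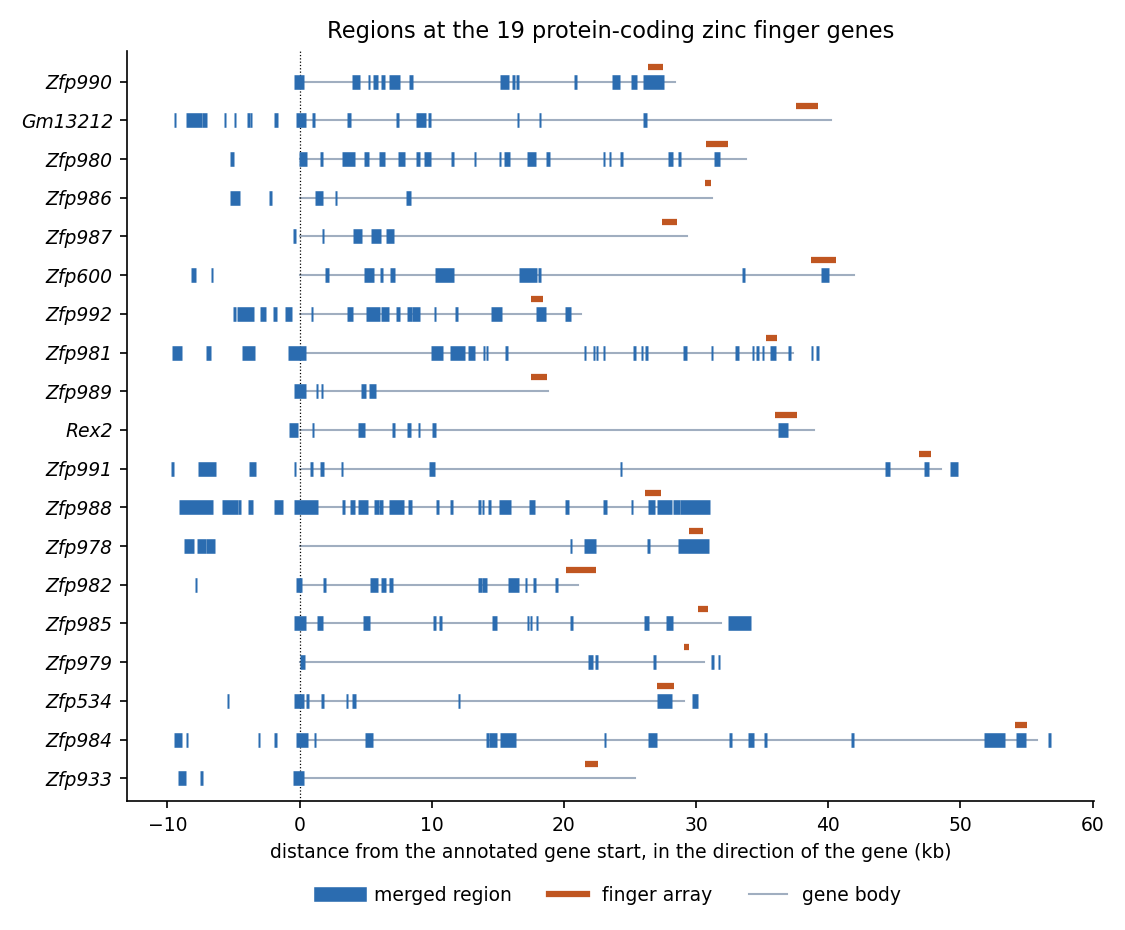
Merged regions (blue) and finger arrays (orange, drawn above) along the 19 protein-coding zinc finger genes with at least 3 fingers, with the gene body as a grey line. The horizontal axis is the distance in kb from the annotated gene start in the direction of the gene, and regions from 10 kb upstream to just past the gene end are drawn. Regions recur at the start, in the first 10 kb of the gene and at the finger exon of 11 genes.

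By distance from the gene start, regions were frequent in the first 10 kb downstream. Summed over the 19 genes, there were 50.0 region centers per 100 kb of sequence within 1 kb of the start, 35.5 from 1 kb to 5 kb downstream and 38.9 from 5 kb to 10 kb, against 22.4 from 5 kb to 1 kb upstream, 25.8 from 10 kb to 20 kb and 23.7 from 20 kb to 30 kb downstream. The windows of neighbouring genes are partly copies of each other. Distances were taken whatever the length of the gene, so those beyond 10 kb include sequence past the end of shorter genes such as Zfp989 (18780 bp).

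The finger exons were covered by regions in many of the genes. A finger array was taken as a run of at least 3 fingers at most 200 bp apart. It overlapped a region in 11 of 19 protein-coding genes (57.9%, 36.3 to 76.9), against 60 of 207 (28.99%, 23.2 to 35.5) in the other clusters, 117 of 311 (37.6%, 32.4 to 43.1) in genes outside clusters and 177 of 518 (34.2%, 30.2 to 38.4) in all other zinc finger genes. The interval of the span overlapped those of genes outside clusters and of all other genes and lay above that of the pooled other clusters. Single clusters lay on both sides of the span. The array overlapped a region in 9 of 11 genes at chr6:47819266-48633689 and in 8 of 12 at chr7:127022130-128238031. The count was 1 of 40 at chr2:175010241-178078476, 1 of 13 at chr17:32354055-33394641 and 0 of 12 at chr10:81606270-82422882. The intervals cover counting error only and treat related genes as independent, and the difference was not tested. Of the bases in these arrays 36.4% lay in regions, against 15.2% in other clusters and 22.7% outside clusters. The density that selected the span bears on both array measures, since regions covered 12.1% of its assembled bases. Its cluster held 268 regions per assembled Mb, against a median of 90.4 in the other clusters. The array was covered from end to end in Zfp990 (13 fingers, by the region of 1637 bp) and over the annotated exons of Zfp978 (by a region of 2349 bp), to 89.0% in Zfp534, 84.7% in Zfp984, 71.1% in Zfp988, 62.6% in Zfp981, 56.6% in Zfp992, 42.6% in Rex2, 40.5% in Zfp991, 35.1% in Zfp600 and 30.0% in Zfp980. It held no region in Gm13212, Zfp986, Zfp987, Zfp989, Zfp982, Zfp985, Zfp979 and Zfp933. The annotation of Zfp986 ends where a gap in the assembly starts (chr4:145899976), so its array is seen only up to that point. Among those 8, the words of the array were repeated to 100% in Zfp989 and to 93.7% in Zfp987 but to 3.17% in Zfp985 and 0% in Zfp933 and Zfp979. The medians of repeated words were 64.7% in arrays with a region and 80.4% in arrays without.

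A scan of the sequence, without regard to annotation, found 27 arrays in the span, of which 16 overlapped a region. Regions covered 37.7% of their bases, against 12.1% of the whole span. Of these arrays, 3 lay in no protein-coding gene or pseudogene but inside the long noncoding gene Gm26573, and 2 of them overlapped a region, among them an array of 23 fingers at chr4:146718148-146720225 that held 3 regions. The array of Gm13230, a transcribed pseudogene, was covered to 97.2% by a region of 2005 bp.

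**Figure D4:**
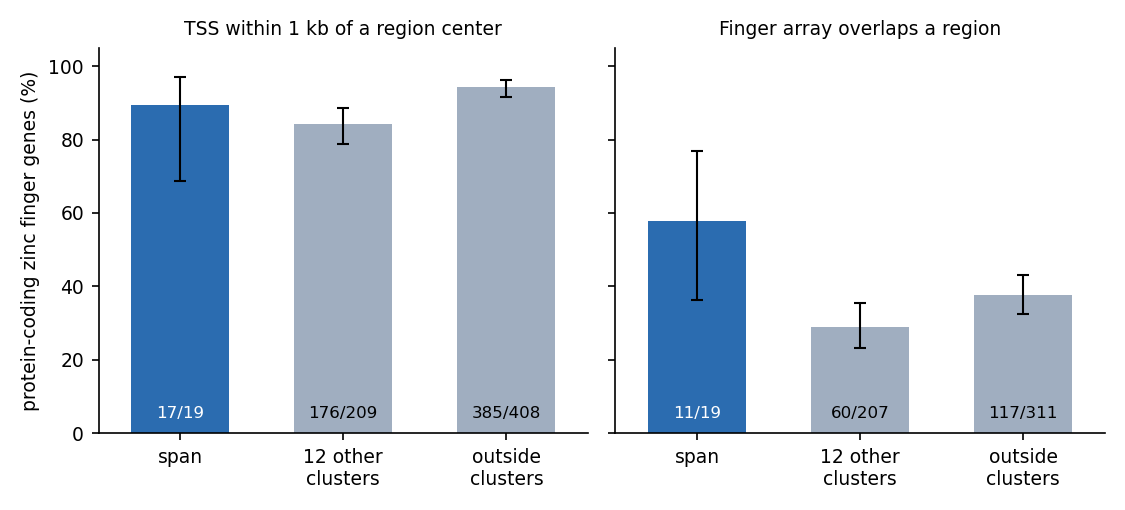
Percentage of protein-coding zinc finger genes whose TSS lay within 1 kb of a region center (left) and whose finger array overlapped a region (right), for the span, 12 other zinc finger clusters and genes outside clusters. Bars give the share, error bars the Wilson 95% interval over genes, and the numbers in the bars the counts. The array share was 57.9% in the span and 28.99% in the pooled other clusters.

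Many members were copies of other members. With a BLASTN alignment of at least 90% identity over at least 80% of the shorter region as the link, 295 of 623 members (47.4%) fell into 67 families, 30 of them with 2 members and 15 with at least 5. The remaining 328 were in no family, and 140 had no alignment to another member at all. The largest family held 54 regions and joined the shared promoters with parts of the first intron through chains of overlapping alignments, so it is not a single element. Its members ranged from 141 bp (chr4:146973595-146973735, in Zfp989) to the 3239 bp region of Gm13147, with a median of 426.5 bp, lay nearest to 19 different zinc finger genes and pseudogenes and were centered 1675 bp downstream of the gene start in the median. It included the regions at the starts of Zfp990, Zfp980, Zfp981, Zfp988, Zfp989, Zfp982, Zfp985 and Zfp534, and also an 823 bp region at the start of Platr16 (chr4:145409843-145410665), a noncoding gene named as a pluripotency-associated transcript. Platr16 and the region of 1949 bp at the start of Gm21411 (chr4:146908068-146910016), a further member of the family, were named after their values were seen.

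The second family held 26 regions, 15 of them on finger arrays, from 132 bp (chr4:146537044-146537175, in Zfp981) to the 3738 bp region of Gm13147, with a median of 526 bp. The third held 10 regions, 9 of them inside zinc finger genes, 6527 bp downstream of the gene start in the median. Its widest member was 1355 bp (chr4:147234817-147236171, Gm13147), its narrowest 134 bp (chr4:145871465-145871598, Zfp986) and its median 402.5 bp. The intron element printed above was the fifth, with 9 regions of 131 bp to 1020 bp, centered 5067 bp downstream of the start in the median.

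Not every copy carried a region. For the 12 largest families the member of median width was searched in the genome, which gave 110 copies in the span, 62 with a region (56.4%) and 48 without. The searched member of each family is a region by choice and is counted among the 62, so the share is raised by construction. It is also part of the medians of repeated words that follow, and in the second family the median of 25.2% is its own value. In the third family 8 of 16 copies carried a region, with 71.1% repeated words in the median, and those without had 100%. In the fifth the values were 66.6% for the 9 copies with a region and 98.5% for the 4 without, and in the second 25.2% for 5 and 85.9% for 11. The eleventh family went the other way, with 62.6% in 5 copies with a region and 38.9% in 3 without, as did the fourth, with 42.2% in 4 copies and 39.7% in the 1 without. Identity to the searched member showed no common direction. With that member itself left out, the median identity was higher in the copies with a region in 5 of the 9 families that had both kinds and lower in 4, from 96.5% against 93.7% in the fourth family to 93.5% against 98.6% in the sixth. The elements of the fourth and the ninth family were not local. The fourth had 5 copies in the span, 4 with a region, and 124 elsewhere, 25 with a region, on 21 chromosomes, and the ninth had 6 in the span, 4 with a region, and 22 elsewhere, 3 with a region, on 13 chromosomes. The density that selected the span bears on these counts, since regions covered 12.1% of its assembled bases and 3.43% of the autosomes. In both families the searched member is 1 of the copies with a region in the span. The second, the seventh and the eleventh family each had 1 copy outside the span.

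Pseudogenes formed another repeated component. The span holds 61 annotated pseudogenes, of which 59 matched a protein-coding transcript of the mouse by BLASTN, and 49 belonged to 8 groups of at least 4 that matched the same gene best. The best matches were Cdv3 and Rplp1, an acidic ribosomal protein gene (9 each), the chromatin protein gene Hmgb1 (7), Smarca5, which encodes the ISWI remodeling ATPase SNF2H (6), the kinase gene Tlk2 and the vomeronasal receptor gene Vmn2r120 (5 each), Hmgb2, and Ppp2r5e, which encodes a regulatory subunit of protein phosphatase PP2A (4 each). The Smarca5 copies matched at 96.6% to 98.1% identity and the Hmgb2 copies at 97.9% to 98.8%, whereas the Ppp2r5e copies matched at 70.98% to 71.8% and the Vmn2r120 copies at 70.2% to 73.1%. The pseudogenes and their groups were named after their values were seen.

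Regions sat at the start of most, and the groups differed. A region center lay within 1 kb of the start in 38 of 51 processed pseudogenes, which are reverse-transcribed copies of an mRNA (74.5%, 61.1 to 84.5), against 1567 of 10185 elsewhere in the genome (15.4%). The density of the span bears on this, since 35.98% of all its positions, and 12.7% of autosomal positions, lay within 1 kb of a region center. All 6 Smarca5 copies had a region centered 257 bp to 484 bp from their start, of 486 bp to 1384 bp, and these 6 regions formed a family of their own. The region of Smarca5-ps (chr4:145463330-145464564) reached upstream of the copied mRNA, and the region at Gm13135 (chr4:147274863-147276175) had 1 further copy outside the span, also with a region. All 5 Tlk2 copies had a region within 229 bp of the start, of 854 bp to 1632 bp, all 4 Ppp2r5e copies within 527 bp, 8 of the 9 Cdv3 copies within 1 kb, and 7 of the 9 Rplp1 copies. Only 2 of the 7 Hmgb1 copies and 1 of the 4 Hmgb2 copies had a region that near, and the other Hmgb2 copies lay 9623 bp to 15122 bp from the nearest region center. The copies of a group share flanking sequence, so each group is closer to 1 observation than to its number of copies. The best-matching genes of the 8 groups lie outside the span and had a region center within 232 bp of a TSS, except Vmn2r120, where the nearest lay 15229 bp away. Descent of the pseudogenes from these genes was not tested.

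**Figure D5:**
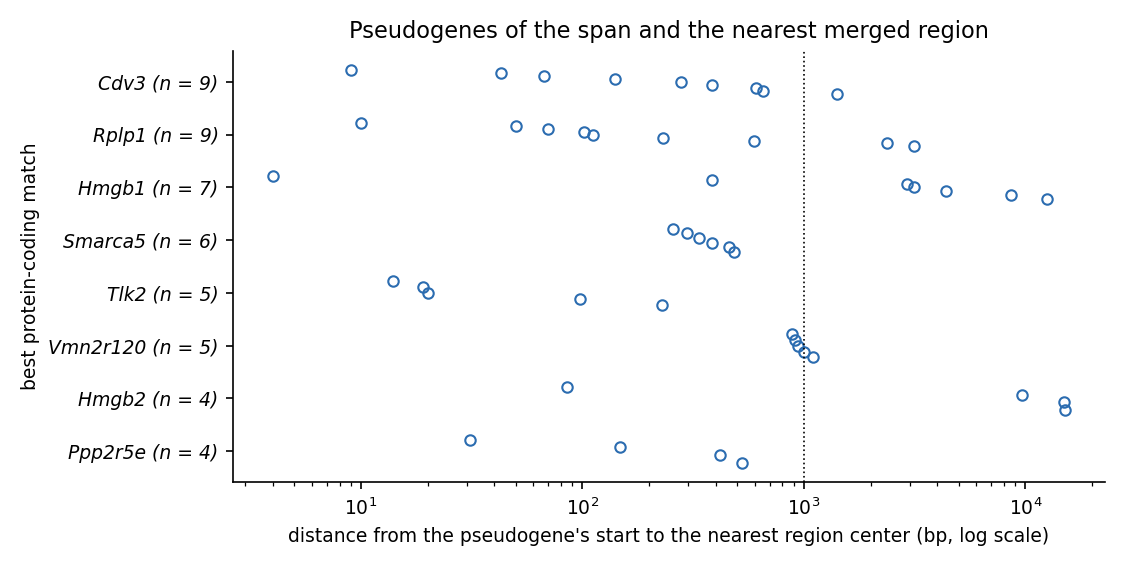
Distance in bp (log scale) from the start of each pseudogene to the nearest region center, for the 8 groups of at least 4 pseudogenes with the same best protein-coding match. Each circle is 1 pseudogene and the dotted line marks 1 kb; all 6 Smarca5 and all 5 Tlk2 copies lie to the left of it, and 5 of the 7 Hmgb1 copies to the right.

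The other dense groups of zinc finger genes in the genome give a frame for these values. With at least 10 protein-coding zinc finger genes and at most 500 kb between neighbours there were 12 other clusters, with 209 genes and 1314 regions. They held 31.7 to 171 regions per Mb (median 90.4), and 2 clusters on chromosome 7 had 171 and 167. Repeated words made up 0.662% to 36.6% of their regions' words, with a median of 3.18%, against 33.5% in the chromosome 4 cluster. The cluster most like it in repeat content was chr2:175010241-178078476, with 40 genes and 36.6% repeated words. It held 31.7 regions per Mb, the fewest of all, with a region within 1 kb of a TSS in 18 of 40 genes and on the array in 1 of 40. These clusters were set side by side without a test, since density selected the span.

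Over all members, motifs of the factors under study were found at shares near or below those of the rest of the list. In the central 200 bp the octamer ATGCAAAT occurred in 9 of 623 members (1.44%, 0.762 to 2.72), against 2.02% of the rest of the list, and the SOX element ACAAAG in 16.5% (13.8 to 19.7) against 19.6%. Both intervals contain the share of the rest. Within 1 kb of a TSS the order was the other way, with the octamer in 2 of 104 members (1.92%, 0.529 to 6.74) against 0.944% and the SOX element in 15.4% (9.70 to 23.5) against 12.6%, again with the share of the rest inside both intervals. Of the 18 members on finger arrays 7 held the SOX element (38.9%, 20.3 to 61.4), an interval above the 19.6% of the rest of the list. None held the octamer (interval 0 to 17.6), and that interval contains the 2.02% of the rest. Of these 18 members 17 were in sequence families, so they are not independent observations. The share of the SOX element in regions on finger arrays outside the span was not counted, so the comparison is with regions of all kinds of sequence. The part of the repeated finger sequence in the 38.9% was not tested. The AP-2 palindrome GCCNNNGGC occurred in 3.69% (2.47 to 5.48) of all members against 9.37% and the GC box GGGCGG in 6.58% (4.89 to 8.81) against 11.9%, while the TATA box TATAAA (12.4% against 8.09%) and the CAAT box CCAAT (30.0% against 23.5%) were found in a larger share of members. The members have fewer G and C bases than the list, which moves with these shares, and its part in them was not tested.

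Most of the remaining protein-coding genes of the span had regions at their starts as well. Regions were centered within 1 kb of a TSS in 10 of these 12 genes (83.3%, 55.2 to 95.3), the exceptions being Zfp993 and Gm16503, whose nearest region centers lay 6735 bp and 1063 bp away. The 10 included the first annotated gene, Vps13d (1385 bp, chr4:145193997-145195381), and the last, Nppb, which encodes B-type natriuretic peptide (912 bp, chr4:147985168-147986079). Miip and Fv1 shared 1 region of 829 bp. Of the 13 noncoding RNA genes, 6 had a region within 1 kb of a TSS (46.2%, 23.2 to 70.9), against 40.4% elsewhere in the genome.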

How the data were processed

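The 12 ATAC-seq libraries were described by their sample labels. Per the paper's methods and the submitters' processing notes, the authors aligned 75-nt paired-end reads to mm10 (GRCm38) with STAR 2.6.1c, discarded duplicates with Picard and kept reads on the autosomes, X and Y. They called peaks from fragments by MACS2 2.1.1.20160309, and BEDTools joined the peaks of both lines into 1 list. The deposited values are the chromosome, start and end of each merged region. The paper's methods also removed peaks above a width limit, peaks that overlapped those of Input samples, and blacklisted peaks. The list used here still held a region of 58315 bp outside the span, far above that limit, so the width filter had not been applied to it. Whether the Input and blacklist filters had been applied is not given. The handling of reads that match several places, whether peaks were called per replicate and whether a published ZHBTc4 dataset entered the merge are not given in the sources used here.

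Positions were counted from 1. Regions were joined to the GRCm38.p6 sequence and GENCODE M21. Fingers were C, 2 to 4 residues, C, 12 residues, H, 3 to 5 residues, H, in any frame. Words of 75 bases were counted on both strands, families were built with BLASTN 2.17.0 and sequences aligned with MAFFT 7.526, in Python 3.11.15 with NumPy 2.4.6 and numba 0.67.0. In simulated sequence 59926 of 59926 words were counted as by a direct search and 12 of 12 planted fingers were found. Shares carry 95% Wilson intervals over regions or genes, which are not replicates of a condition. With no value per sample, no test over samples and no left-out replicate was possible.

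Members and gene lists were chosen with earlier results of these data known. The named items were the zinc finger genes with most regions or none, the genes of the 5 densest windows and of both ends of the span, the 3 widest regions, the 3 largest families and the regions at zinc finger TSSs, and others are said to have been chosen after their values were seen. The intron element of the fifth family and its printed copies were also chosen after their values were seen. So were the other families named beyond the 3 largest.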

Additional observations from a re-analysis of the deposited data

How the results depend on the processing

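In all, 22 alternatives were run on 9 results. The number of regions was 587 after joining regions less than 100 bp apart and 459 without regions under 200 bp. The density fell to 208 regions per Mb when unassembled bases were counted. The median width was 490 bp without regions under 200 bp. The soft-masked share was 34.2% as a mean over regions. Repeated words made up 52.9% with words of 36 bases and 9.04% with words of 150 bases, since shorter words recur more often by construction. At 95% identity 186 members were in families, and at 80% identity 361. Counting only TSSs of protein-coding genes gave 6.58% within 1 kb. The share inside zinc finger genes was 27.3% when genes were chosen by symbol and 38.4% with at least 1 finger, which adds Vps13d and Platr16, and adding genes by symbol to those with 3 fingers, an alternative chosen after seeing the data, left it at 33.5%. The densest window held 74 regions when the window slid in steps of 10 kb, and 51 after joining regions less than 100 bp apart. No paired analysis was possible because regions have no value per sample. Depth is unknown, 6 assembly gaps interrupt the span, and a region in repeated sequence cannot be tied to 1 copy with certainty.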
